A study of Mus musculus with 12 samples.

Results

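Circadian clock genes were described in the jejunum of mice with and without bile flow. The names were chosen from a list of 10 genes of the clock and its output, drawn up with earlier results of these arrays known: Nr1d1, Nr1d2, Dbp, Tef, Per1, Per2, Per3, Cry1, Clock and Npas2. Each gene was to be read from the probe set that carries its symbol alone, and from the one with the highest mean over the 12 arrays where it had several. Of the 10 genes, 9 had such a probe set, each exactly 1, so that no measured level decided a choice, and Npas2 is not analysed here. These are 9 of the 19938 genes with a probe set of their own.

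The mice were 8-week-old males of the inbred strains A/J and C57BL/6J (B6). The 4 groups were A/J CBDL, A/J sham, B6 CBDL and B6 sham, with 3 arrays each, and jejunum was taken on day 7 after the operation. CBDL is ligation of the common bile duct, which keeps bile from reaching the gut, and sham mice had the same laparotomy with the duct left untouched. The sources used here do not give the hour at which each animal was killed. Nothing in the labels ties an array to a cage or litter, and the p-values below reflect the spread between the 3 samples of a group, which may in part be technical.

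The mammalian clock is a transcription loop in which CLOCK, or its relative NPAS2, pairs with BMAL1 (gene Arntl) on E-box DNA and turns on the Per and Cry genes, whose proteins then shut the pair off. In a second loop the nuclear receptors REV-ERB alpha and beta (genes Nr1d1 and Nr1d2) are turned on by the same pair and repress Arntl, Cry1 and Nfil3 through ROR elements. DBP and TEF, the PAR bZIP factors, activate D-box genes that NFIL3 represses, and pass the rhythm on to enzymes and transporters. In the gut the loop runs in epithelial and muscle cells alike and follows feeding time and glucocorticoids, so that the level of each gene depends on the hour of sampling.

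The start regions of 4 members are shown, those of Nr1d1, Per1 and Cry1 because these members passed a test below, and that of Per3 because it held the D-box. They come from RefSeq, build GRCm38.p6, and run 5′ to 3′ on the gene's own strand from 250 bases before the annotated start to 50 bases after it. They lie at chr11:98775328-98775627 (minus strand) for Nr1d1, chr11:69098699-69098998 (plus strand) for Per1, chr10:85185005-85185304 (minus strand) for Cry1 and chr4:151044616-151044915 (minus strand) for Per3. Capitals mark the E-box CACGTG and the D-box TTATGTAA or TTACGTAA.
Nr1d1: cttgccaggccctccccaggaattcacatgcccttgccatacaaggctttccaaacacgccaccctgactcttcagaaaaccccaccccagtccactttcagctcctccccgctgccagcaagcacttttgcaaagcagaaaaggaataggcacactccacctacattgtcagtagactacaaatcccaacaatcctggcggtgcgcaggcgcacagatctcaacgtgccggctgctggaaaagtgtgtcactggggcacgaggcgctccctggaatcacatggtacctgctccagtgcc
Per1: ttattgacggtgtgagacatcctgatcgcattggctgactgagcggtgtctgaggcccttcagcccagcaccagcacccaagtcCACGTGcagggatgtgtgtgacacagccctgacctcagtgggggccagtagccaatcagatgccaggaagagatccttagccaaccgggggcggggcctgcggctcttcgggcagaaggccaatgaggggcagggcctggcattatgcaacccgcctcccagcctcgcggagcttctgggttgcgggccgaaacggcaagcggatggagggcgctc
Cry1: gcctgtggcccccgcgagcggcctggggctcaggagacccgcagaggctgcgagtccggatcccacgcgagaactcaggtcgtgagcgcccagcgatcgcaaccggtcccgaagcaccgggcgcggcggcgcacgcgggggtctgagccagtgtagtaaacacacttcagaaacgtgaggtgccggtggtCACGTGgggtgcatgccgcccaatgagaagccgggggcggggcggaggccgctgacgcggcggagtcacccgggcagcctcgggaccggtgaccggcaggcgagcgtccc
Per3: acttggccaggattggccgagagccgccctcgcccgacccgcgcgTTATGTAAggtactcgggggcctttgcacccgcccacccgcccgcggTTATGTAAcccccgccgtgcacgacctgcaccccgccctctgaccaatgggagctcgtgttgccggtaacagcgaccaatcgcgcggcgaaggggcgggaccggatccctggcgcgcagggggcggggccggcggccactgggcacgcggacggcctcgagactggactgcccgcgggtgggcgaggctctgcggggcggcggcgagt
The E-box was in the start windows of 3 members, counted from the start. It was at -127 and at -138 in the 2 windows of Tef and at -60 in Cry1. In Per1 it was at -166 in the window shown, and the other Per1 window had none. The D-box was in 1 member, Per3, at -205 and -158, and the ROR core TAGGTCA, searched on both strands like the others, was in none. Over the 32851 start windows of all genes the shares with these letters were 7.15% for the E-box, 1.06% for the D-box and 2.61% for the ROR core. The members have 13 windows, which cover 9 of the 10 members, Per2 being the exception. Members were counted by gene and the shares by window, so the 2 are not on 1 scale. A match is a description of the letters in this window only.

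The arrays gave log2 RMA signals, a scale on which 1 unit is a 2-fold difference, and levels of different genes are not set against each other on it. A/J sham replicate 1 stood apart, with a mean correlation with the other arrays of 0.970, against 0.979 to 0.984 for the rest. Markers of hepatocytes, cells that jejunum should lack, differed between the groups: the mean log2 signal of 19 of them was 8.56 to 9.05 in A/J CBDL, 5.14 to 5.63 in A/J sham, 8.63 to 8.90 in B6 CBDL, and 6.45, 7.26 and 8.52 in the B6 sham arrays. Of the 19, 16 rose in A/J CBDL over A/J sham, where 0.818% of all probe sets were called. In B6 limma called 0, where 0.0534% of all probe sets were called. There 13 had an unadjusted p under 0.05, against 7.64% of all probe sets. Cps1, which is on this list and in its mean, did not rise in A/J. Its group mean was 11.25 in A/J CBDL, 11.48 in A/J sham, 11.57 in B6 CBDL and 11.41 in B6 sham. The mean of 10 smooth muscle markers was 7.71 to 8.25 in A/J CBDL, 6.77 to 8.45 in A/J sham with replicate 1 lowest, 6.82 to 7.40 in B6 CBDL and 7.92 to 8.49 in B6 sham. The mean of 11 markers of enterocytes, the absorptive cells of the jejunum, was 12.38 to 12.45 in A/J CBDL, 12.42 to 12.55 in A/J sham, 12.38 to 12.44 in B6 CBDL and 12.48 to 12.53 in B6 sham. That of 11 leukocyte markers was 5.89 to 5.98 in A/J CBDL, 5.79 to 6.24 in A/J sham, 5.62 to 5.77 in B6 CBDL and 5.93 to 6.0 in B6 sham. The smooth muscle, enterocyte and leukocyte means all lay lower in B6 CBDL than in B6 sham without overlap. Limma called 0 genes of these lists there. All 10 smooth muscle genes had an unadjusted p under 0.05, with a median log2 difference of -1.28. So did 1 of the 11 enterocyte and 4 of the 11 leukocyte genes, against 7.64% of all probe sets. Their part in the B6 differences was not tested beyond a smooth muscle covariate, given below. The mean of 9 pancreatic acinar markers was 4.49 to 4.84 on all arrays. The tissue was sampled in bulk, where fewer cells of a type and less RNA per cell cannot be told apart.

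CBDL went with a lower level of the repressor gene Nr1d1 in A/J jejunum and, over both strains together, with lower Nr1d1 and higher Per1. In A/J mice Cry1 also rose. Of the 9 members, 1 rose and 1 fell between A/J CBDL and A/J sham, where 0.818% of the 35556 probe sets were called by limma (p adjusted by Benjamini-Hochberg, threshold 0.05). Over both strains 1 rose and 1 fell, against 1.74% of all probe sets called. In B6 mice alone limma called 0 members, where 0.0534% of all probe sets were called, and 3 members (Nr1d1, Nr1d2 and Per1) had an unadjusted p under 0.05, against 7.64% of all probe sets. The arrays of A/J CBDL did not overlap those of A/J sham for 6 of the 9 members, against 17.1% of all probe sets, and in B6 for 3 of the 9, against 15.5%. The names were picked with these differences known, so the counts describe the members and are no test of them as a set.

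**Figure D1:**
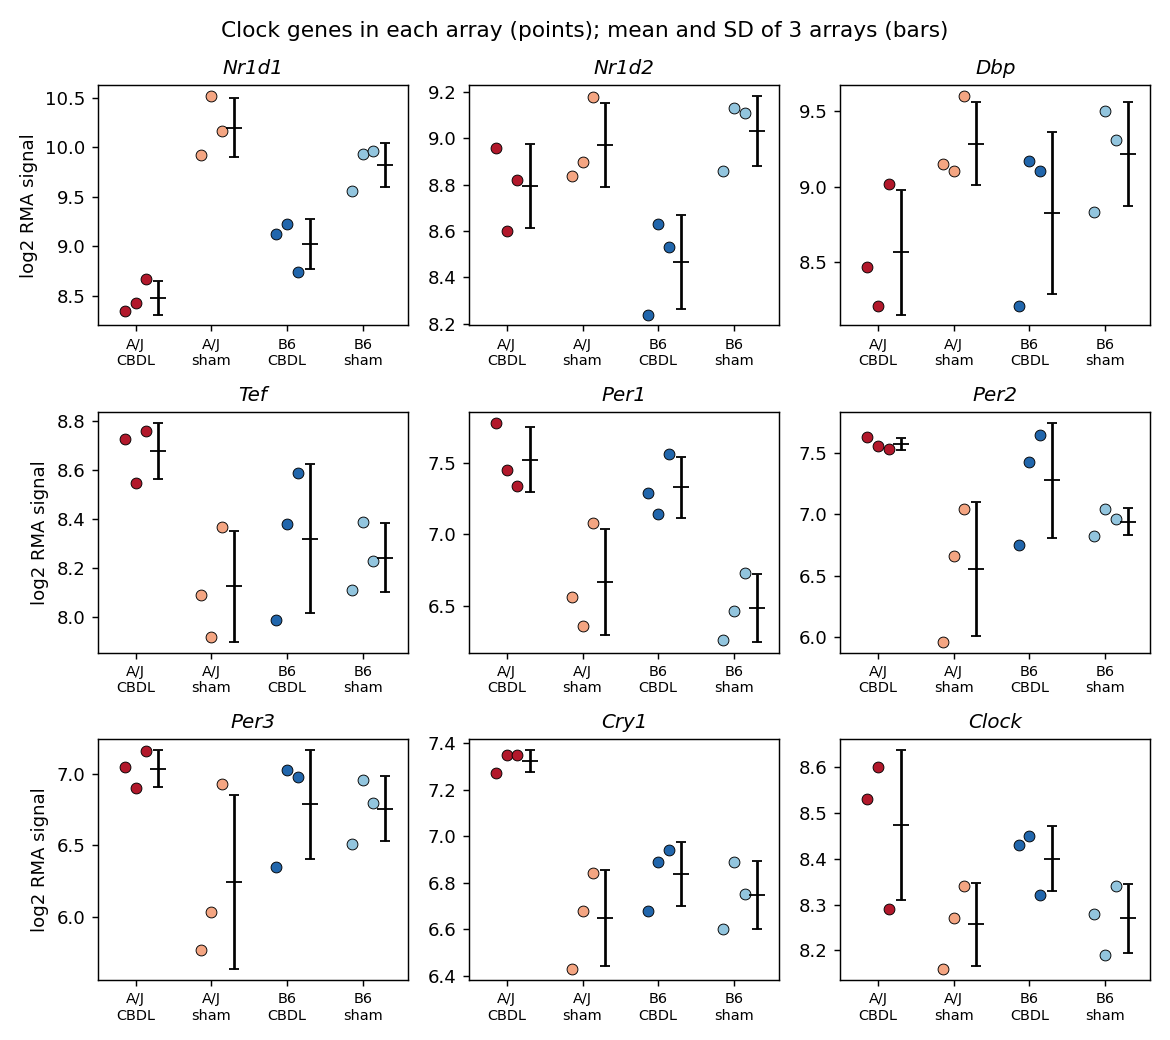
Log2 RMA signal of each of the 9 clock genes (vertical axis) on every array, by group from left to right A/J CBDL, A/J sham, B6 CBDL and B6 sham; points are arrays and bars are group means with SD (n = 3). Nr1d1 lies at 8.34 to 8.67 in A/J CBDL, under the 9.92 to 10.52 of A/J sham, and Per1 is higher in CBDL than in sham in both strains.

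Nr1d1, which encodes REV-ERB alpha, a heme-binding repressor, had log2 signals of 8.34, 8.43 and 8.67 in A/J CBDL, against 9.92, 10.52 and 10.16 in A/J sham. In B6 mice they were 9.12, 9.22 and 8.74 in CBDL, against 9.56, 9.93 and 9.96 in sham. In both strains every CBDL array was below every sham array, and A/J CBDL was also below B6 CBDL on every array. The difference between A/J CBDL and A/J sham was -1.72 on the log2 scale (SE 0.18, limma adjusted p = 0.00298), a level 3.30-fold lower, with a 95% interval from -2.13 to -1.32. In B6 it was -0.79 (SE 0.18, limma adjusted p = 0.186, interval -1.20 to -0.39), and over both strains -1.26 (SE 0.13, limma adjusted p = 0.00131).

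The A/J difference in Nr1d1 kept its call with each array left out in turn, at -1.86 to -1.56. It was lost when the hepatocyte mean entered as a covariate, at -2.24 (SE 0.53, limma adjusted p = 1), where 0 of all probe sets were called, and over all alternatives the adjusted p ran from 0.000163 to 1. Of the variance of that mean in A/J arrays 98.6% lay between CBDL and sham, and in B6 arrays 55.6%. In B6 sham, where the mean differed most within a group, the array with the highest hepatocyte mean (8.52, against 8.63 to 8.90 in B6 CBDL) had an Nr1d1 of 9.96. The other B6 sham arrays had 9.56 and 9.93. The part of hepatocyte RNA in the Nr1d1 difference was not tested with these values. Thra, which overlaps the end of Nr1d1 on the opposite strand, differed by 0.03 in A/J (limma adjusted p = 0.958) and by -0.02 in B6.

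Nr1d2, the gene of REV-ERB beta, had signals of 8.96, 8.60 and 8.82 in A/J CBDL, against 8.84, 8.90 and 9.18 in A/J sham. In B6 they were 8.24, 8.63 and 8.53 in CBDL, against 8.86, 9.13 and 9.11 in sham. The A/J groups overlapped and the B6 groups did not. The log2 difference was -0.57 in B6 (SE 0.14, limma adjusted p = 0.225) and -0.18 in A/J (limma adjusted p = 0.614), and neither passed the test.

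Dbp, a PAR bZIP activator and a direct E-box target of the clock, had signals of 8.47, 8.21 and 9.02 in A/J CBDL, against 9.15, 9.10 and 9.60 in A/J sham. In B6 they were 8.21, 9.17 and 9.10 in CBDL, against 8.83, 9.50 and 9.31 in sham. The A/J groups did not overlap but the B6 groups did, and the log2 difference was -0.72 in A/J (SE 0.29, limma adjusted p = 0.296) and -0.55 over both strains (limma adjusted p = 0.247). Tef, its close relative, stood the other way in A/J, with 8.73, 8.55 and 8.76 in A/J CBDL, against 8.09, 7.92 and 8.37 in A/J sham. B6 CBDL had 7.99, 8.38 and 8.59, against 8.11, 8.39 and 8.23 in B6 sham, with the groups overlapping. The Tef difference in A/J was 0.55 (SE 0.16, limma adjusted p = 0.156), and that over both strains 0.31 (limma adjusted p = 0.239).

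Per1, a repressor of the main loop that is also induced directly by glucocorticoids and by cyclic AMP signals, had signals of 7.78, 7.45 and 7.34 in A/J CBDL, against 6.56, 6.36 and 7.08 in A/J sham. In B6 they were 7.29, 7.14 and 7.56 in CBDL, against 6.26, 6.46 and 6.73 in sham. Every CBDL array was above every sham array of its strain. The log2 difference was 0.86 in A/J (SE 0.20, limma adjusted p = 0.0866) and 0.85 in B6 (SE 0.20, limma adjusted p = 0.198), and it passed the test over both strains at 0.85 (SE 0.14, limma adjusted p = 0.0148, interval 0.54 to 1.16). That call was lost with the hepatocyte covariate, at 0.28 (SE 0.38), and its adjusted p over all alternatives ran from 0.00219 to 1.00. The B6 sham array with the hepatocyte mean of 8.52 had a Per1 of 6.73, the highest of its group but below every B6 CBDL array. The B6 sham arrays at hepatocyte means of 6.45 and 7.26 had a Per1 of 6.26 and 6.46.

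Other genes that glucocorticoids induce were read beside Per1, from a list of 8. Over both strains 5 of the 8 rose and 0 fell, against 1.74% of all probe sets called. In A/J CBDL 2 rose, against 0.818% called, and in B6 CBDL 1 rose, against 0.0534%. The list's median log2 difference over both strains was 1.28, against -0.00995 over all probe sets. Fkbp5, a chaperone that binds the glucocorticoid receptor, differed by 3.12 over both strains (SE 0.36, limma adjusted p = 0.00241) and Sgk1, a kinase of ion transport, by 1.62 (SE 0.18, limma adjusted p = 0.00207). The mean of the whole list of 9, Per1 included, was 8.31 to 9.21 in A/J CBDL, 7.13 to 7.77 in A/J sham, 8.15 to 8.70 in B6 CBDL and 7.31 to 7.49 in B6 sham. The part of this in the Per1 difference was not tested. Of 10 immediate early genes, which respond within minutes to growth factors and handling, limma called 0 over both strains, and 2 had an unadjusted p under 0.05, against 14.1% of all probe sets.

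Per2, the partner of Per1 in the repressor complex, had signals of 7.63, 7.56 and 7.53 in A/J CBDL, against 5.96, 6.66 and 7.04 in A/J sham. B6 CBDL had 6.75, 7.43 and 7.65, against 6.82, 7.04 and 6.96 in B6 sham. The A/J groups did not overlap, with sham replicate 1 farthest from the CBDL arrays, and the B6 groups did. The A/J difference of 1.02 on the log2 scale (SE 0.27) missed the threshold (limma adjusted p = 0.114). It was 0.72 without A/J sham replicate 1 (limma adjusted p = 0.190) and 1.26 without A/J sham replicate 3, where it passed (limma adjusted p = 0.0418), and its adjusted p over all alternatives ran from 0.0418 to 1.

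Per3, the period gene that is dispensable for rhythm in mice, had 7.05, 6.90 and 7.16 in A/J CBDL, against 5.77, 6.03 and 6.93 in A/J sham, and the groups overlapped through A/J sham replicate 3. B6 CBDL had 6.35, 7.03 and 6.98, against 6.51, 6.96 and 6.80 in B6 sham. The difference was 0.80 in A/J (SE 0.28, limma adjusted p = 0.227) and 0.03 in B6. It was 0.56 without A/J sham replicate 1 (limma adjusted p = 0.414). Without A/J sham replicate 3 the A/J difference was 1.14 and passed (limma adjusted p = 0.0318, over all alternatives 0.0318 to 1).

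Cry1, a cryptochrome of the repressor complex, had 7.27, 7.35 and 7.35 in A/J CBDL, against 6.43, 6.68 and 6.84 in A/J sham. In B6 it had 6.68, 6.89 and 6.94 in CBDL, against 6.60, 6.89 and 6.75 in sham. A/J CBDL stood above the 9 other arrays, which overlapped one another. The A/J difference was 0.68 on the log2 scale (SE 0.12, limma adjusted p = 0.0316), a level 1.60-fold higher, and the B6 difference was 0.09 with a 95% interval from -0.18 to 0.36. Over both strains it was 0.38 (SE 0.09, limma adjusted p = 0.0532).

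The A/J call of Cry1 was near the threshold. Leaving out A/J CBDL replicate 1, 2 or 3 gave an adjusted p of 0.0818, 0.115 or 0.0902. Leaving out A/J sham replicate 1 gave 0.0704, A/J sham replicate 2 gave 0.112 and B6 CBDL replicate 2 gave 0.0556, and the log2 difference in these 6 fits was between 0.57 and 0.70. It was 0.121 when the 6 A/J arrays were fitted alone and 1 with the hepatocyte covariate, at a difference of 0.33 (SE 0.35), and over all alternatives it ran from 0.00868 to 1.

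Clock, whose product is the activating partner of BMAL1, varied least of the members. It had 8.53, 8.60 and 8.29 in A/J CBDL, against 8.16, 8.27 and 8.34 in A/J sham, and 8.43, 8.45 and 8.32 in B6 CBDL, against 8.28, 8.19 and 8.34 in B6 sham. The groups overlapped in both strains, and the difference over both strains was 0.17 (limma adjusted p = 0.303). Its residual SD within groups was 0.107, lower than that of all but 15.1% of probe sets. Those of Dbp, Per3 and Per2 were 0.403, 0.384 and 0.367, against a median of 0.168 over all probe sets.

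**Figure D2:**
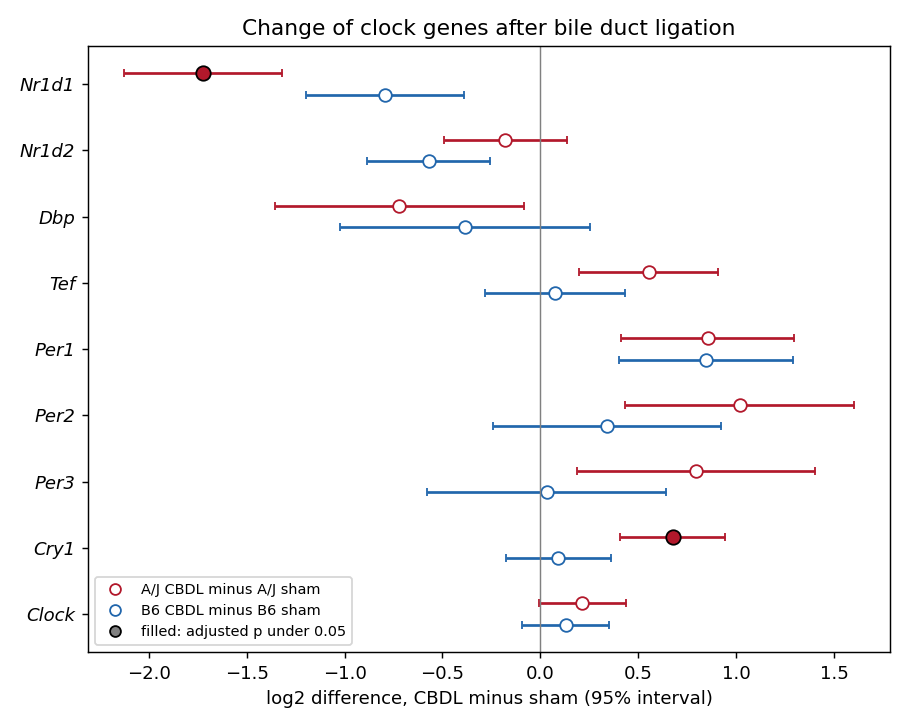
Log2 difference between CBDL and sham (horizontal axis) for each clock gene in A/J and in B6 mice, with 95% intervals from limma; filled points passed an adjusted p under 0.05. Nr1d1 lies below 0 and Per1 above 0 in both strains, while Cry1 is at 0.68 in A/J and 0.09 in B6.

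The strains were compared within each operation and in the size of their CBDL difference. For the strain by CBDL interaction limma called 0 members, where 0.0366% of all probe sets were called, and 2 had an unadjusted p under 0.05, against 6.88% of all probe sets. These were Nr1d1, with an interaction of -0.93 (SE 0.26, interval -1.50 to -0.36, limma adjusted p = 0.568), and Cry1, with 0.58 (SE 0.17, interval 0.20 to 0.96, limma adjusted p = 0.568). The interaction of Per1 was 0.01, with an interval from -0.62 to 0.63. So a difference between the strains in the response of a single member was not shown at this number of arrays, and the interval of Per1 leaves room for a difference as large as 0.63 on the log2 scale.

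Between A/J CBDL and B6 CBDL limma called 0 members, where 1.78% of all probe sets were called, and 4 had an unadjusted p under 0.05, against 13.7% of all probe sets. These were Cry1 at 0.49 (limma adjusted p = 0.0806), Nr1d1 at -0.55 (limma adjusted p = 0.197), Tef at 0.36 and Nr1d2 at 0.33. The arrays of the 2 groups did not overlap for 2 members, Cry1 above and Nr1d1 below in A/J CBDL, against 21.7% of all probe sets. In the comparison of the shams, A/J with B6, limma called 0 members, where 1.87% of all probe sets were called. None of them had an unadjusted p under 0.05, against 15.4% of all probe sets, and none had groups that did not overlap, against 18.7%. The sham difference of Nr1d1 was 0.38 on the log2 scale, with A/J sham at 10.2 ± 0.31 and B6 sham at 9.82 ± 0.22 (SD, n = 3 each).

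Of 18 other clock genes 16 were measured, and limma called 0 of them in each of the 6 comparisons, with 2 at an unadjusted p under 0.05 in the comparison over both strains, against 14.1% of all probe sets. Arntl, the gene of BMAL1, had 6.36, 7.44 and 6.10 in A/J CBDL, against 6.62, 6.55 and 6.17 in A/J sham, and 6.88, 6.86 and 6.28 in B6 CBDL, against 6.97, 6.09 and 6.38 in B6 sham. Its groups overlapped in both strains, and its log2 difference was 0.19 in each. Cry2, the other cryptochrome, had 7.87, 7.69 and 7.52 in A/J CBDL, against 6.41, 7.09 and 6.90 in A/J sham, without overlap. In B6 the groups overlapped, with 6.84, 7.09 and 7.53 in CBDL, against 6.53, 6.89 and 6.78 in sham. The Cry2 difference was 0.89 in A/J (SE 0.20, limma adjusted p = 0.0816) and 0.66 over both strains (limma adjusted p = 0.0505). Nfil3, the repressor of D-box genes, had 6.96, 7.15 and 6.39 in A/J CBDL, against 6.17, 6.30 and 5.50 in A/J sham. B6 CBDL had 6.88, 6.09 and 5.70, against 5.93, 5.67 and 5.67 in B6 sham. The CBDL arrays of A/J stood above all its sham arrays and those of B6 overlapped with sham, and the difference in A/J was 0.85 (SE 0.30, limma adjusted p = 0.243).

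Genes known as outputs of the clock were read next, 15 measured of 16. Over both strains 1 rose and 1 fell, against 1.74% of all probe sets called. In A/J 1 fell, against 0.818% called, and in B6 limma called 0, against 0.0534%. Between A/J sham and B6 sham 1 was called, against 1.87%. The output gene that rose was Nampt, the rate-limiting enzyme of NAD salvage. It had 9.66, 9.61 and 9.55 in A/J CBDL, against 8.67, 8.73 and 9.18 in A/J sham. B6 CBDL had 9.01, 9.46 and 9.50, against 8.88, 8.74 and 9.08 in B6 sham. Its log2 difference over both strains was 0.58 (SE 0.12, limma adjusted p = 0.0338), with only the B6 groups overlapping. The output gene that fell was Slc2a5, the fructose transporter GLUT5, with 10.15, 9.94 and 10.04 in A/J CBDL, against 10.57, 10.67 and 10.80 in A/J sham, a difference of -0.64 (SE 0.10, limma adjusted p = 0.0180). In B6 the groups overlapped, with 10.10, 9.89 and 9.96 in CBDL, against 9.93, 10.10 and 10.17 in sham, and the difference was -0.08 (limma adjusted p = 0.946). The A/J sham level of Slc2a5 was also above that of B6 sham, by 0.61 (limma adjusted p = 0.0113). The other 13 output genes were not called in any comparison of CBDL with sham.

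Within the groups most members other than Nr1d1 and Clock varied together from array to array. Each array's deviation from its group mean was taken, and the 36 pairs of members were compared over the 12 arrays as a description, since all points share the same hybridisations and 4 group means were removed. The correlation was positive for 31 of the 36 pairs and above 0.5 for 18, with a median of 0.52 and a range from -0.42 to 0.89. The same shares were not computed for pairs of other genes, so these counts do not set the members apart from them. Per2 and Cry1 had r = 0.89 (rho = 0.91, and r = 0.79 without the 2 arrays farthest from the median of Per2), and Dbp and Tef had r = 0.86 (rho = 0.85, and r = 0.84 likewise). For Dbp and Per3 it was 0.80 (rho = 0.85, and r = 0.80 likewise). Nfil3 ran the other way, with r = -0.91 against Dbp (rho = -0.85, and r = -0.85 without the 2 farthest) and r = -0.92 against Tef (rho = -0.91, and r = -0.84). Arntl had r = -0.73 against Dbp (rho = -0.73, and r = -0.74).

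**Figure D3:**
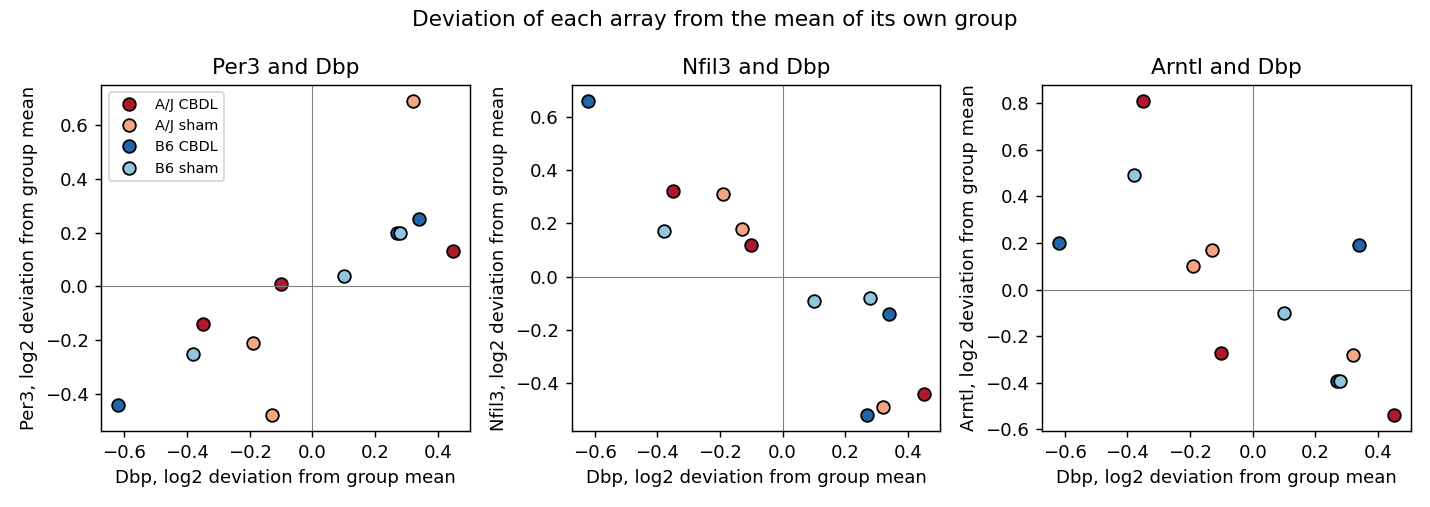
Deviation of each array from its group mean on the log2 scale, with Dbp on the horizontal axis and Per3, Nfil3 and Arntl on the vertical axes; each point is 1 of the 12 arrays, colored by group. Arrays with more Dbp than their group have more Per3 (r = 0.80), less Nfil3 (r = -0.91) and, with more scatter, less Arntl (r = -0.73).

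Nr1d1 and Clock had weaker correlations with the rest. Clock had r from -0.42 with Dbp to 0.28 with Per1. For Nr1d1 the within-group correlation was 0.21 with Dbp and 0.18 with Nr1d2, and over all other members it ran from -0.32 to 0.34. The Nr1d1 difference between CBDL and sham in A/J, -1.72, stood beside a residual SD of 0.244, while those of Dbp and Per2 were -0.72 beside 0.403 and 1.02 beside 0.367.

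Against the hepatocyte mean, the within-group correlations of Nr1d1 and Per1 were 0.34 and 0.49, and over all 12 arrays, groups included, they were -0.80 and 0.71. Thus for Nr1d1 the sign within groups was the opposite of the sign between them. These are descriptions over 12 arrays that share their groups, and the part of hepatocyte RNA in the differences of the clock genes was not tested beyond the covariate.

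**Figure D4:**
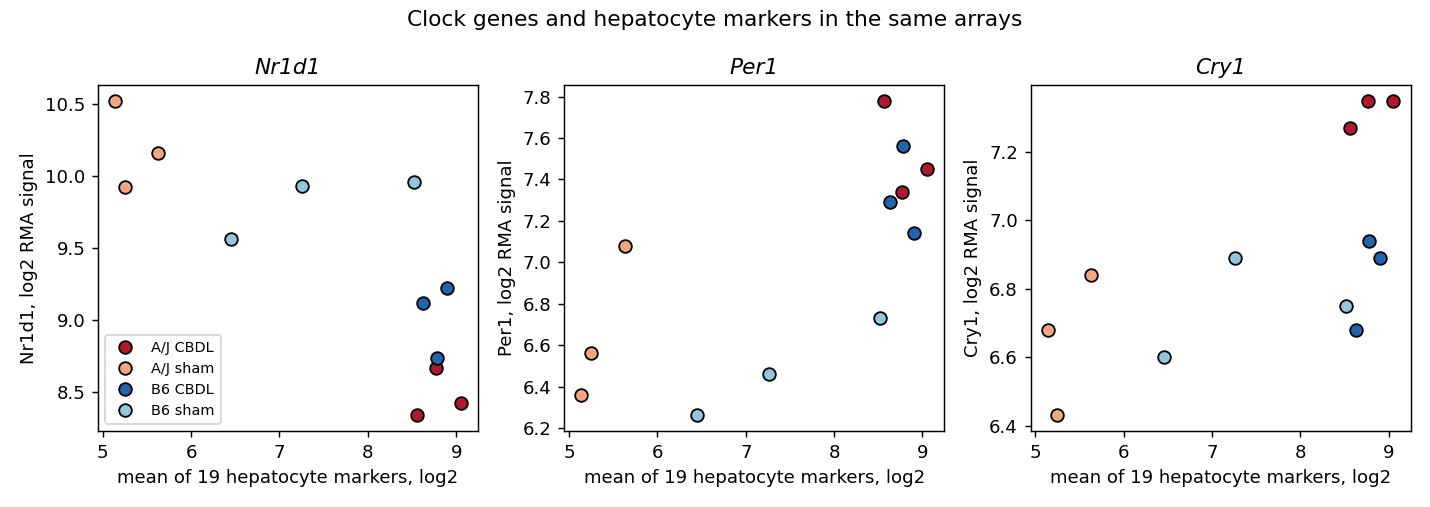
Log2 signal of Nr1d1, Per1 and Cry1 (vertical axes) against the mean log2 signal of 19 hepatocyte markers (horizontal axis), 1 point for each of the 12 arrays, by group. The B6 sham array at a hepatocyte mean of 8.52 has an Nr1d1 of 9.96, above all B6 CBDL arrays, as are the other B6 sham arrays at 9.56 and 9.93.

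The genes whose pattern was most like that of Nr1d1 were found by Pearson's r over the 12 arrays among the 19929 other genes. The highest were Ccl25 (r = 0.96, rho = 0.965), a chemokine of small intestinal epithelium, Cnnm2 (r = 0.942, rho = 0.951), a magnesium transport protein, Dhx58 (r = 0.942, rho = 0.888), an RNA sensor of the RIG-I family, and Hsd17b6 (r = 0.938, rho = 0.895), a steroid dehydrogenase. The lowest were Plcg1 (r = -0.961), a phospholipase C, Ppp2r3a (r = -0.949), a phosphatase subunit, Fut4 (r = -0.945), a fucosyltransferase, and Cyp2c39 (r = -0.935), a cytochrome P450. None of the 8 was in the lists of clock or output genes. Within groups their r with Nr1d1 was 0.66, 0.67, 0.74 and 0.20 for the 4 highest and -0.44, -0.53, -0.66 and -0.64 for the 4 lowest.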

How the data were processed

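Jejunal total RNA was hybridised to 12 Affymetrix arrays, 3 for each strain and operation, and groups were taken from the sample labels. The labels number the replicates and do not say whether each is a different mouse. The authors deposited log2 RMA signals made in the Affymetrix Expression Console (versions not given in the sources used here), and the values were used as deposited. The study's methods name GCRMA and another array type, whereas the probe set identifiers are those of the Mouse Gene ST platform. Of 35556 probe sets, 21789 had 1 gene symbol in the platform table, 1621 several and 12146 none, and the array medians were 5.36 to 5.51.

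All probe sets and 12 arrays entered a single limma 3.58.1 model (R 4.3.3) of the 4 group means, without a filter. Calls were made where the p, adjusted by Benjamini-Hochberg over all probe sets, was under 0.05. There were 6 comparisons. All 10 members were to be described, with other genes named where called, together with Arntl, Cry2 and Nfil3 and the 4 genes most and the 4 least like Nr1d1. Fkbp5, Sgk1 and Thra were named after their values were seen. The members and lists were chosen with earlier results of these data known. Same-numbered arrays of different groups deviated with r from -0.31 to 0.36, so arrays were not paired. The script was tested on simulated data. The number of arrays limits the precision. The alternatives were 2 renormalizations, a filter on the 30% dimmest probe sets, exactly 1 gene symbol, array weights, a prior with trend and robust estimation, only the arrays compared, a replicate block, a hepatocyte covariate and each array left out. A smooth muscle covariate and the joint omission of A/J sham replicate 1 and B6 sham replicate 3 were added after the data were seen.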

Additional observations from a re-analysis of the deposited data

How the results depend on the processing

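The number of members called between A/J CBDL and A/J sham was 2, with 291 of all probe sets called. It was 1 (Nr1d1) with only the arrays of the groups compared and with A/J sham replicate 1 and B6 sham replicate 3 both left out (197 and 310 probe sets), 4 (Nr1d1, Per1, Per2 and Cry1) with probe sets of exactly 1 gene symbol (565), 5 (those and Tef) with array weights (1299), and 0 with the hepatocyte mean as covariate, where 0 of all probe sets were called. With each array left out in turn it was 1 to 5, being 1 without any of the A/J CBDL arrays, A/J sham replicates 1 or 2 or B6 CBDL replicate 2, and 5 without A/J sham replicate 3. Over both strains it was 2 (617 probe sets), and it was 5 with exactly 1 gene symbol (905), 5 with array weights (1510), 0 with the hepatocyte covariate (again 0 of all), 4 with the smooth muscle covariate (373), which was chosen after seeing the data, and 2 to 3 with each array left out. Between A/J CBDL and B6 CBDL it was 0 (634 probe sets), and 1 (Cry1) with exactly 1 gene symbol (701) and with array weights (1261). Between A/J sham and B6 sham it was 0 (665 probe sets), and 1 (Nr1d1) with array weights (3044). In B6 and for the interaction it was 0 under every alternative run. With the smooth muscle covariate the B6 difference was -0.58 for Nr1d1, against -0.79 without it, and 0.92 for Per2, against 0.34. Standard errors in B6 were then 1.39 times as wide in the median. Among differences with an unadjusted p under 0.05, Per3 in A/J reversed with the hepatocyte covariate, at -0.049. Over all 9 members and 6 comparisons, whatever their p, the sign turned for 11 of 54 values with the hepatocyte covariate and 6 with the smooth muscle covariate. With the replicate block 2 members were called in A/J, Nr1d1 (limma adjusted p = 0.00442) and Cry1 (0.0202), and 3 over both strains, Cry1 being added (0.0362).

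The hepatocyte covariate made standard errors wider, by 2.98 times in A/J and 2.94 times over both strains in the median, and 98.6% of its variance in A/J arrays, against 55.6% in B6, lay between CBDL and sham. The cause of the other changes was not tested. The comparisons over both strains and the interaction use all 4 groups, so a fit of only the arrays compared gave no other value, and each member had 1 probe set, so the alternative of another probe set gave none. With 3 arrays per group and no hour of harvest in the sources used here, the phase of the clock cannot be told apart from its level.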
